A study of Mus musculus with 3 samples.

Results

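Col1a1, Col1a2, Col3a1, Fn1 and Vim are genes that fibroblasts are known to express at high levels, and their contact with the nuclear periphery was read here from DamID profiles of mouse embryonic fibroblasts. These 5 genes were chosen by name, and each was taken as a fixed mm9 interval around its transcribed part, the gene body. The bodies held 368 GATC fragments, and 1589 with 50 kb on each side, of 6415372 fragments in each profile. DamID joins a protein of interest to Dam, an adenine methylase from bacteria that marks GATC wherever the protein touches DNA, and stretches bounded by marked sites are then amplified for sequencing. Wild type C57BL/6 fibroblasts were transduced with a retrovirus for Dam alone (Dam Only), for Dam-Lap2b or for Dam-Lamin A, with 1 sample in each of the 3 groups. Lap2b sits in the inner nuclear membrane, and Lamin A forms filaments of the meshwork beneath it. Each profile is an average over the cells of a culture, so contact in fewer cells and weaker contact per cell cannot be told apart. DamID holds no RNA level, so the fibroblast label was not checked against expression.

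Lamina-associated domains are long stretches of chromatin that touch the nuclear envelope, and they are known for low gene density and low transcription. Genes that a cell type transcribes strongly usually lie between them, in the nuclear interior. Col1a1 and Col1a2 encode the chains of type I collagen, the main fibrous protein of connective tissue. Col3a1 encodes type III collagen, which forms fibrils together with type I. Fn1 encodes fibronectin, a matrix glycoprotein that cells bind through integrins, and Vim encodes vimentin, the intermediate filament protein of mesenchymal cells.

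Each value below is a deposited log2 ratio of a fusion to a reference, averaged over fragments unless said otherwise. In a single fragment, a value below 0 means fewer reads in the fusion than in the reference. Each profile carries a small offset, so 0 itself is not equal reads. An average counts each fragment alike, whatever its reads, and is not a ratio of read totals. The reference was taken to be the Dam Only library, which no label states. Reads recovered from the ratios summed to 139.9 M for Dam-Lamin A, 151.6 M for Dam-Lap2b and 155.04 M for the reference, as lower bounds. The median fragment held 10, 10 and 7 of them. No group had a replicate, so no difference below has a replicate check, no p-value is given, and an SD is the spread over fragments of 1 library. Before the members are described, profiles and domain lists have to be named by their labels only, because they went together crosswise. In 16943 bins of 10 kb in the Dam-Lamin A list alone, the Dam-Lamin A profile averaged −0.04 and the Dam-Lap2b profile 0.46. In 6436 bins in the Dam-Lap2b list alone, they averaged 0.37 and 0.04. Each result on domains is therefore given for both lists.

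The bases before the start of a gene show which letters Dam can read there, and 3 of the 5 members had an entry in the RefSeq promoter table (Col1a2, Col3a1 and Vim). The 250 bases before each start are printed 5′ to 3′ on the plus strand of GRCm38.p6, a later build than the mm9 of the profiles, so the coordinates cannot be set beside those of the fragments. They are chr6:4505368-4505617 for Col1a2, chr1:45311288-45311537 for Col3a1 and chr2:13574061-13574310 for Vim. Capitals mark 3 motifs, each searched on both strands. The first is GATC, which Dam methylates and which reads the same on both. The next is the CCAAT box of many promoters, which appears as ATTGG when it lies on the minus strand. The last is TATAAA, one form of the TATA box.
Col1a2: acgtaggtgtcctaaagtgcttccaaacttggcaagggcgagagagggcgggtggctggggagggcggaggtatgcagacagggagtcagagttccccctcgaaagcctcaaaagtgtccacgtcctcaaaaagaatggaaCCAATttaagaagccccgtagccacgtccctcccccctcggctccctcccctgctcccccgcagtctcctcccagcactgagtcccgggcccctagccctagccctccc
Col3a1: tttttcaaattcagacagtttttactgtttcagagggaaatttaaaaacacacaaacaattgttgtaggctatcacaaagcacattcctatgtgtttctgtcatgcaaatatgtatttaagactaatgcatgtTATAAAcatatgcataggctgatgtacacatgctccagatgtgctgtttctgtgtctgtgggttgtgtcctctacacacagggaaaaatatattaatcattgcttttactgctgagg
Vim: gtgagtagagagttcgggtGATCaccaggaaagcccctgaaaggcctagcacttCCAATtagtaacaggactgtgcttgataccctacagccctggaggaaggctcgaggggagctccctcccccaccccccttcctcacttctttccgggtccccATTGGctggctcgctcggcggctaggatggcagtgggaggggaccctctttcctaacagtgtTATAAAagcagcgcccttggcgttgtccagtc
Vim was the only one of the 3 with a GATC in this window, 231 bases before its start, and 41.9% of the 32851 promoter entries had one. A CCAAT box lay 109 bases before the start of Col1a2 and 94 bases before that of Vim, which held a further one upstream. CCAAT was in 33.8% of all entries. A match to TATAAA lay 32 bases before the start of Vim and 117 bases before that of Col3a1, and 12.4% of entries held it. No matches overlapped. Cytosine and guanine made up 62% of the window of Col1a2, 58.4% of that of Vim and 35.2% of that of Col3a1, against a median of 52.4% over all entries. A match is a description of the letters and not a binding site. In the profiles, the first 2 kb of a body held between 2 fragments in Col3a1 and 10 in Vim.

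All 5 gene bodies read below 0 in both profiles and lay outside every listed domain. Of all 255936 bins of 10 kb, 44.8% had a mean below 0 in the Dam-Lamin A profile and 40.7% in the Dam-Lap2b profile. The median over the 5 bodies was −2.20 in the Dam-Lamin A profile, with a range of −2.66 to −1.78, and −1.76 in the Dam-Lap2b profile, with a range of −2.89 to −0.49. The median over all bins was 0.26 and 0.47, and over the 109856 bins in neither list it was −1.03 and −0.90. The reference reads recovered per body ranged from 4159 in Col3a1 to 15581 in Fn1.

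The type I collagen genes were low in opposite order. The body of Col1a1 (chr11:94797001-94814500, 42 fragments) averaged −1.93 ± 1.45 (SD over fragments) in the Dam-Lamin A profile and −2.89 ± 1.44 in the Dam-Lap2b profile. The body of Col1a2 (chr6:4455001-4492000, 73 fragments) averaged −2.66 ± 1.38 and −1.40 ± 0.86. The partner chains thus had their lower value in different profiles. Single fragments below 0 numbered 38 of 42 and 40 of 42 in Col1a1, and 69 of 73 and 70 of 73 in Col1a2. From 50 to 500 kb on each side, 70.5% and 89.0% of fragments were below 0 around Col1a1, and 41.1% and 25.1% around Col1a2. In the 50 kb downstream of Col1a1 the Dam-Lap2b share was 97.7%, above the 95.2% of its body. The share over all fragments of the genome was not computed.

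Averaged over fragments, Col3a1 was the member least below 0 in both profiles. Its body (chr1:45368001-45407000, 67 fragments) averaged −1.78 ± 1.25 in the Dam-Lamin A profile and −0.49 ± 0.74 in the Dam-Lap2b profile. In the latter profile 48 of its 67 fragments were below 0, and none was below −2. Weighting fragments by their length brought this value to −0.30. In the Dam-Lamin A profile the place of Col3a1 depended on the measure. With length weighting Col3a1 was at −1.98 and Col1a1 at −1.38. With summed reads Col3a1 was at −2.10, below Vim at −2.05, Fn1 at −2.02 and Col1a1 at −1.90.

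Fn1, the longest member, averaged −2.20 ± 1.33 in the Dam-Lamin A profile and −1.76 ± 1.15 in the Dam-Lap2b profile over 165 fragments (chr1:71632001-71700000). Vim, the shortest, averaged −2.48 ± 1.37 and −2.53 ± 2.10 over 21 fragments (chr2:13495001-13505000). All 21 fragments of Vim were below 0 in the Dam-Lamin A profile, and 20 of 21 in the Dam-Lap2b profile. With 10 kb added on each side, the values of Vim moved to −1.62 and −1.37.

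Ordered from the lowest, the Dam-Lamin A profile ran Col1a2, Vim, Fn1, Col1a1 and Col3a1, and each step in that order was smaller than the SD over fragments of either neighbour. The Dam-Lap2b profile ran Col1a1, Vim, Fn1, Col1a2 and Col3a1. There the step from Col1a2 to Col3a1 exceeded the SD of both, and the other steps did not. An SD describes single fragments and not the error of a mean, so a step below it is not thereby within error. The Dam-Lamin A profile was lower than the Dam-Lap2b profile by 1.26 in Col1a2 (difference −1.26), by 1.30 in Col3a1 (−1.30) and by 0.44 in Fn1 (−0.44). It was higher by 0.96 in Col1a1 and by 0.04 in Vim. Among 10 kb bins in neither list, which are shorter than most bodies, this difference had a median of −0.13 and ran from −1.20 to 1.12 between its 5th and 95th percentiles.

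How low these values were for stretches of their size was read from windows of the length of each body, laid end to end along the genome. For Col1a2, 9 of 69308 windows of 37000 bp were at or below its Dam-Lamin A value, or 0.0130%. Among the 27953 of these windows that touched no listed domain, the share was 0.0322%. In the Dam-Lap2b profile the share outside domains was 23.5% for Col1a2, so the extreme position of this gene was in 1 profile.

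Col1a1 was placed the other way round. Outside domains, 7.06% of windows were at or below its Dam-Lamin A value, and 0.482% (293 of 60820) at or below its Dam-Lap2b value. For Fn1 the shares outside domains were 0.398% and 9.46%. For Vim they were 1.71% and 2.04%, near each other in the 2 profiles. For Col3a1 they were 7.17% and 73.9%, so its Dam-Lap2b value was higher than that of most windows outside domains.

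The bodies were next compared with the sequence around them, the 50 kb flanks and the stretch from 50 to 500 kb on each side, here called the surroundings. All 5 bodies were lower than their surroundings in both profiles, with a median difference of −1.36 in the Dam-Lamin A profile and −1.37 in the Dam-Lap2b profile. All 5 were lower than both flanks in the Dam-Lamin A profile, and 4 of 5 in the Dam-Lap2b profile, the exception being Col3a1. Of 10 kb bins over the genome, 49.8% were below their own surroundings in the Dam-Lamin A profile and 46.5% in the Dam-Lap2b profile. Below both flanks were 37.3% and 34.1% of bins. Among windows of the members' lengths outside listed domains, 68.3 to 70.1% were below their surroundings in the Dam-Lamin A profile and 66.7 to 69.3% in the Dam-Lap2b profile. Below both flanks were 30.0 to 39.5% and 30.1 to 36.5% of them. Being below the surroundings was thus the more frequent state outside domains, and the count of members says little by itself.

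**Figure D1:**
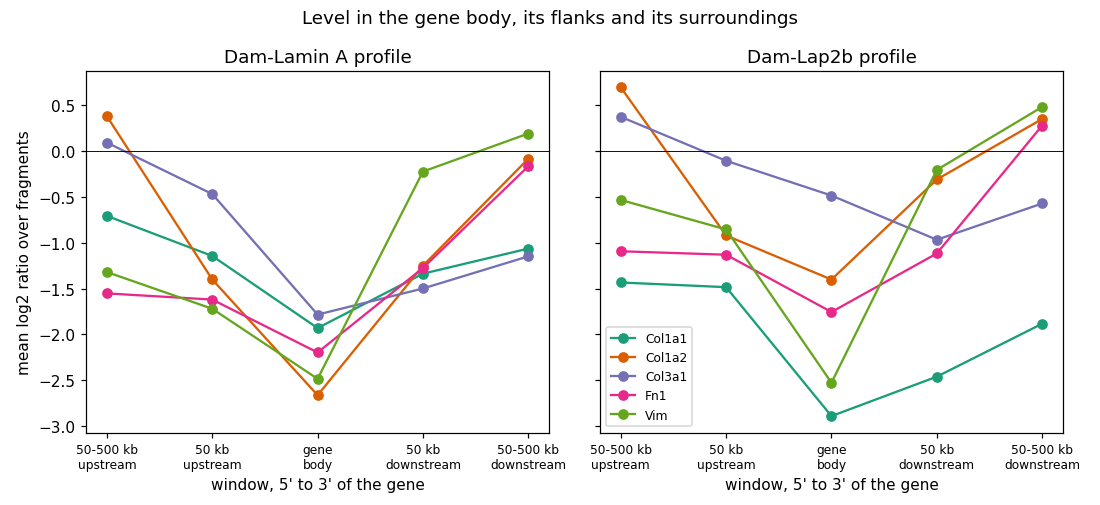
Mean log2 ratio over fragments (vertical axis) in the gene body, the 50 kb flanks and the stretches from 50 to 500 kb, ordered 5′ to 3′ (horizontal axis), for the Dam-Lamin A profile (left) and the Dam-Lap2b profile (right), with 1 line per gene. Each line dips at the body, except that of Col3a1 in the Dam-Lap2b profile, which is lowest in the downstream flank at −0.97.

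Col1a2 differed most from its surroundings in the Dam-Lamin A profile. Its surroundings averaged 0.16 in that profile and 0.53 in the Dam-Lap2b profile, and the body lay below them by differences of −2.82 and −1.93. Its flanks were between, at −1.40 upstream and −1.25 downstream in the Dam-Lamin A profile, and −0.92 and −0.31 in the Dam-Lap2b profile. In order along the RefSeq annotation, Bet1 precedes Col1a2 and Casd1 follows it.

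Vim was low against a surrounding that differed by side. From 50 to 500 kb upstream it averaged −1.32 in the Dam-Lamin A profile and −0.53 in the Dam-Lap2b profile, and from 50 to 500 kb downstream it averaged 0.19 and 0.48. The downstream flank, on the side of St8sia6, was at −0.23 and −0.21. The upstream flank, on the side of Trdmt1, was at −1.72 and −0.86. The body differed from all its surroundings by −1.98 in the Dam-Lamin A profile and by −2.54 in the Dam-Lap2b profile. With 10 kb added to the body these differences became −1.12 and −1.39, and with ratios of summed reads the former became −1.08.

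Fn1 lay in a low stretch that ended on its downstream side, where Atic follows. Upstream, from 50 to 500 kb, the profiles averaged −1.55 and −1.09, close to the upstream flank at −1.62 and −1.13. Downstream they rose from −1.28 and −1.12 in the flank to −0.17 and 0.28 beyond it. The body differed from the surroundings by −1.36 in the Dam-Lamin A profile and by −1.37 in the Dam-Lap2b profile. With summed reads the former difference was −0.71.

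Col3a1 showed the reverse arrangement, with the higher side upstream. There the surroundings averaged 0.09 and 0.37 and the flank −0.47 and −0.11. The downstream flank, on the side of Col5a2, which encodes a chain of the fibril-forming type V collagen, averaged −1.50 and −0.97. The body was above this flank by 0.48 in the Dam-Lap2b profile and below it in the Dam-Lamin A profile (difference −0.28). Against all its surroundings the body differed by −1.30 and −0.42.

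Col1a1 was surrounded by low values on both sides in both profiles. Its surroundings averaged −0.88 in the Dam-Lamin A profile and −1.65 in the Dam-Lap2b profile, the lowest means of the 5 genes in each. In the Dam-Lamin A profile Fn1 was close, at −0.84, and the order turned with the measure. There the medians were −0.891 for Col1a1 and −0.915 for Fn1, and the ratios of summed reads −1.14 and −1.30. The body of Col1a1 differed from its surroundings by −1.05 and −1.24, and the first of these became −0.51 with fragments weighted by length. The downstream flank, on the side of Sgca, was nearly as low as the body in the Dam-Lap2b profile, at −2.46.

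The distance to listed domains separated the members further. No body overlapped a domain of either list, also with 50 kb added on each side. By their middle, 54.6% of all 10 kb bins lay in a domain of the Dam-Lamin A list and 50.5% in one of the Dam-Lap2b list. No domain of either list was touched by 107791 of 255936 windows of 10000 bp, the length of Vim. At 68000 bp, the length of Fn1, it was 14578 of 37752. For bodies with 50 kb added such a share was not computed. Col3a1 was the nearest to a domain, with 57.6 kb to the upstream one in the Dam-Lamin A list and 105.5 kb in the Dam-Lap2b list. Col1a2 lay in the shortest gap between domains, of 351 and 418 kb. Its upstream neighbour domain was 94.7 and 173 kb away, and its downstream one 219 and 208 kb. Within 500 kb of Col1a2, 64.3% of the sequence was listed in the Dam-Lamin A list and 57.7% in the Dam-Lap2b list, the highest shares among the members.

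Vim and Fn1 lay further from domains. The nearest domain of Vim was downstream, 163 kb away in the Dam-Lamin A list and 278 kb in the Dam-Lap2b list, and the gap around Vim was 793 and 1174 kb long. The nearest domain of Fn1 was also downstream, at 145 and 323 kb, in a gap of 1442 and 1650 kb. That domain of the Dam-Lamin A list averaged 0.07 in the Dam-Lamin A profile and 0.59 in the Dam-Lap2b profile. The gap around Col3a1 was 787 and 739 kb long.

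Col1a1 was the member farthest from any domain. The nearest ones ended 1084 kb upstream in the Dam-Lamin A list and 1086 kb upstream in the Dam-Lap2b list, and the next ones downstream began 4714 and 4920 kb away. The gap that held Col1a1 was thus 5815 kb by the Dam-Lamin A list and 6023 kb by the Dam-Lap2b list. No sequence within 500 kb of Col1a1 was listed in either.

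**Figure D2:**
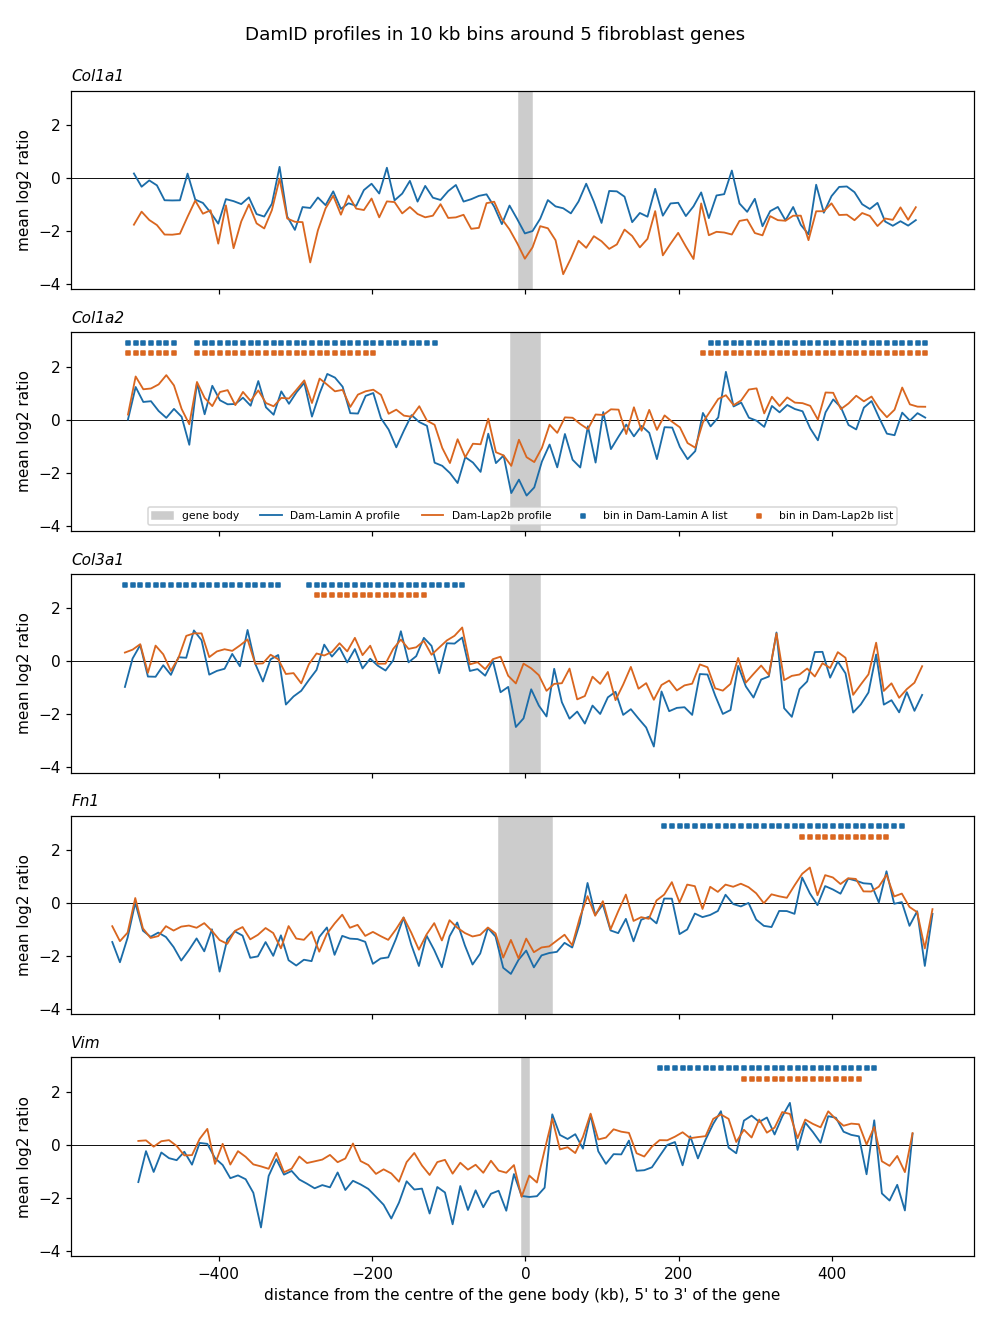
Mean log2 ratio in 10 kb bins (vertical axis) by distance from the centre of the gene body in kb, 5′ to 3′ (horizontal axis), with 1 panel per gene, the gene body in grey, the Dam-Lamin A profile in blue and the Dam-Lap2b profile in orange. Squares above the lines mark bins whose middle lies in a domain of the list of that colour. Domains stand on both sides of Col1a2, on 1 side of Col3a1, Fn1 and Vim, and nowhere around Col1a1.

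The length of the low stretch around each gene was measured as the run of 10 kb bins below 0 that includes the body. For Col1a2 the run was 240 kb long in the Dam-Lamin A profile and 90 kb in the Dam-Lap2b profile, with 25 kb upstream and 28 kb downstream of the body in the latter. For Fn1 it was 580 kb in both, with 470 kb upstream and 42 kb downstream. For Vim it was 440 and 250 kb, and it ended 25 kb downstream of the body in both profiles. For Col3a1 it was 360 and 300 kb, and it ended 18 and 8 kb upstream. For Col1a1 it was 440 kb in the Dam-Lamin A profile and 2660 kb in the Dam-Lap2b profile. The shorter run of Col1a1 ended at bins of 0.39 upstream and 0.28 downstream, and 98 of the 103 bins around the gene were below 0 in that profile. The 90 kb run of Col1a2 ended upstream at a bin of 0.04, with bins below 0 again beyond it. Within 500 kb of the gene, the lowest bin fell on the body for Col1a2 and Fn1 in both profiles and for Vim in the Dam-Lap2b profile. The body made up 5 of 105 bins for Col1a2, 7 of 108 for Fn1 and 2 of 102 for Vim. How often this happens for other windows over the genome was not computed. Around Col1a1 and Col3a1 it lay outside the body in both. Around Vim in the Dam-Lamin A profile it lay 335 kb upstream, at −3.13.

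Values inside the bodies were not even. The lowest fragment of the Dam-Lap2b profile lay within 2 kb of the 5′ bound in 3 of 5 members, Col1a2, Fn1 and Vim. That of the Dam-Lamin A profile did so in 1 of 5, Col1a1. These 2 kb held 10 of the 21 fragments of Vim, 3 of 73 in Col1a2, 3 of 165 in Fn1 and 4 of 42 in Col1a1. How often other windows over the genome have this feature was not computed, so the counts are not read as a 5′ pattern. The 5′ bounds are those of the rounded intervals used, not transcript starts. For the values below, each body was cut into 3 parts of equal length, called the 5′, middle and 3′ parts.

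In Vim the profiles dipped in different places. The 5′ part of the body averaged −3.97 ± 1.83 over 11 fragments in the Dam-Lap2b profile, and the 3′ part averaged −0.61 ± 0.84 over 5. In the Dam-Lamin A profile the same parts averaged −1.88 ± 0.86 and −2.64 ± 2.02, and the middle part, its lowest, −3.65 ± 0.83 over 5. The lowest Dam-Lap2b fragment was chr2:13495711-13496542, 1.13 kb from the 5′ bound, at −7.56, with 27 Dam-Lap2b reads, 1276 Dam-Lamin A reads and 5369 reference reads recovered. The lowest Dam-Lamin A fragment was chr2:13504106-13504593 at −6.09, with 0 Dam-Lamin A reads and 71 reference reads. In that fragment the Dam-Lap2b value was −1.15, from 31 reads.

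A single 5′ fragment stood out in Fn1 as well. The fragment chr1:71699068-71699948, 0.493 kb from the 5′ bound, was at −7.36 in the Dam-Lap2b profile, with 0 Dam-Lap2b reads over 166 reference reads. It was at −3.60 in the Dam-Lamin A profile, with 12 reads. The next fragments, with 33 and 686 reference reads, were at −2.26 and −1.35 in the Dam-Lap2b profile. From the 5′ to the 3′ part, Fn1 averaged −2.56, −2.26 and −1.76 in the Dam-Lamin A profile. In the Dam-Lap2b profile its 5′ part averaged −1.74 and its 3′ part −1.48, and the middle part was the lowest. The lowest Dam-Lamin A fragment, chr1:71685623-71686042, was at −6.97, with 0 Dam-Lamin A reads over 132 reference reads and 46 Dam-Lap2b reads.

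In Col3a1 both profiles were lowest in the 5′ part, at −2.47 and −0.79. The 3′ part was at −1.34 in the Dam-Lamin A profile and −0.40 in the Dam-Lap2b profile. Col1a2 varied less along its body than the spread over its fragments, with −2.59, −2.88 and −2.60 in the Dam-Lamin A profile and −1.24, −1.24 and −1.63 in the Dam-Lap2b profile. Its lowest Dam-Lap2b value, −3.79 at the 5′ bound, rested on 0 reads over 13 reference reads.

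Col1a1 held its highest and its lowest Dam-Lamin A fragment side by side at the 5′ bound. The fragment chr11:94797198-94797346 was at −4.87, with 0 Dam-Lamin A and 30 reference reads, and chr11:94797350-94798509 was at 2.31, with 27 and 5. In the Dam-Lap2b profile these fragments were at −2.12 and −2.56. The lowest Dam-Lap2b fragment of Col1a1 lay towards the 3′ end, chr11:94810846-94811585, at −7.48, with 14 reads over 2725 reference reads. The same fragment was at −1.97 in the Dam-Lamin A profile, from 654 reads.

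**Figure D3:**
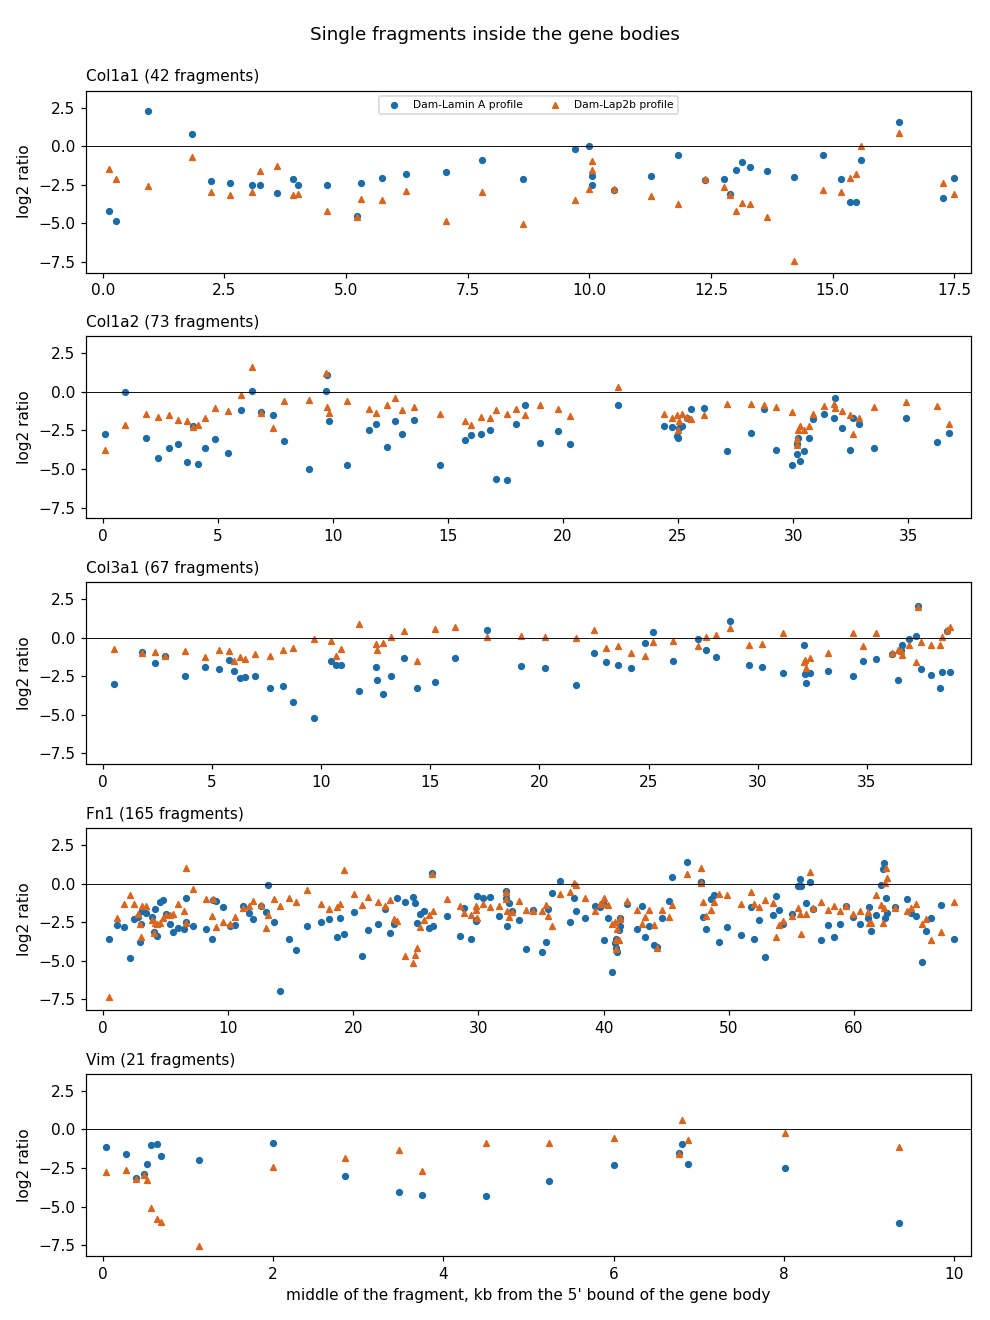
Log2 ratio of single GATC fragments (vertical axis) by the distance of their middle from the 5′ bound of the gene body in kb (horizontal axis), with 1 panel per gene, blue circles for the Dam-Lamin A profile and orange triangles for the Dam-Lap2b profile. In the first 2 kb of Vim the triangles fall to −7.56 while the lowest circle is at −3.16, and further in most circles lie below the triangles.

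A ratio below 0 can come with few fusion reads or with many reference reads, and both counts were described for each body. The reference was above its genome mean of 60.0 reads per kb in 5 of 5 bodies, by 1.78 to 11.4 times, or by 1.53 to 5.66 times without the fragment with most reference reads in each body. The Dam-Lamin A library was above its genome mean of 54.2 reads per kb in 2 of 5, Col1a1 and Vim, and without that fragment in 1 of 5, Col1a1. The Dam-Lap2b library was above its mean of 58.7 in 3 of 5 either way. Of all 10 kb bins, 30.9% were above the mean of the reference, 38.8% above that of Dam-Lamin A and 45.5% above that of Dam-Lap2b. Among windows of the members' lengths outside listed domains, 65.4 to 80.0% were above the mean of the reference, so most such windows shared that state with the members. For Dam-Lamin A the share was 17.9 to 21.8%, and for Dam-Lap2b 20.3 to 25.04%. The part of the high reference reads in the low ratios was not tested.

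Col1a1 held 495 reference reads per kb, 8.25 times the genome mean, and 0.219% of windows of its length held as many. Its Dam-Lamin A reads were also above the mean, at 125 per kb or 2.30 times, and its Dam-Lap2b reads were below it, at 34.8 per kb or 0.593 times. Col1a2 held 256 reference reads per kb (4.27 times the mean), 39.6 Dam-Lamin A reads per kb (0.731 times) and 108 Dam-Lap2b reads per kb (1.83 times). The type I collagen genes thus each had 1 fusion above its genome mean, and not the same one.

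Fn1 held 229 reference reads per kb, 3.82 times the mean, while both fusions were near their means, at 0.986 times for Dam-Lamin A and 1.14 times for Dam-Lap2b. Col3a1 had the smallest excess of the reference, at 107 reads per kb or 1.78 times the mean, and 14.8% of windows of its length held as many. Its Dam-Lamin A reads were the lowest of the members, at 23.4 per kb or 0.431 times the mean, and its Dam-Lap2b reads were at 1.16 times.

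Vim held 687 reference reads per kb, 11.4 times the mean, but 78.1% of these reads were in the 1 fragment near its 5′ bound. Without that fragment the reference was at 2.51 times its mean, the Dam-Lamin A library fell from 2.89 to 0.533 times and the Dam-Lap2b library from 0.845 to 0.799 times. The ratio of summed reads of Vim was −2.05 in the Dam-Lamin A profile and −3.77 in the Dam-Lap2b profile with the fragment, and −2.29 and −1.66 without it. The order of the profiles in Vim thus turned with this 1 fragment. In Col1a1 the fragment with most reference reads held 31.4% of them, and without it the ratio of summed reads in the Dam-Lap2b profile went from −3.81 to −3.30.

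**Figure D4:**
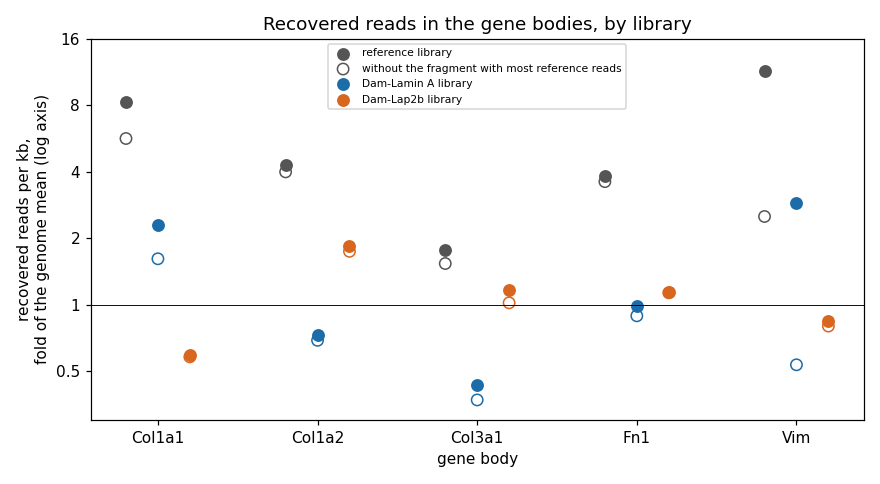
Reads per kb recovered in each gene body, as a fold of the mean of the same library over the genome (vertical axis, log scale), by gene (horizontal axis), for the reference (grey), Dam-Lamin A (blue) and Dam-Lap2b (orange) libraries. Open circles leave out the fragment with most reference reads, which lowers the reference in Vim from 11.4 to 2.51 times, and the reference stays above 1 in all 5 genes.

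The 95% exact binomial interval of the ratio of summed reads was −3.93 to −3.69 for Col1a1 and −0.70 to −0.55 for Col3a1 in the Dam-Lap2b profile. In the Dam-Lamin A profile it was −2.69 to −2.53 for Col1a2 and −2.07 to −1.96 for Fn1. These intervals treat each recovered read as independent and hold no other source of error. Amplified reads without molecular identifiers are not independent molecules, so the intervals can be too narrow even for counting error.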

How the data were processed

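For each fusion the authors deposited log2 values per GATC fragment and a list of domains with start and end only. Alignment used Bowtie and mm9, per the submitters' processing notes. The counting, the scaling and the domain caller are not given in the sources used here. Each deposited log2 value could be written as an offset per profile plus the log2 of fusion over reference reads, 1 added to each, with the same reference for both. The lowest reads that fitted (reference up to 20000) were used and are lower bounds. Start positions were read as BED and are printed from 1. A fragment belonged to a window when its middle lay in it. Bins of 10 kb needed at least 5 fragments. A member overlapped a domain from 1 bp on. The text names all 5 members and no gene by its value. Members, windows and lists were chosen with earlier results of these data known. Strands of Col1a1 and Fn1 came from general knowledge. Other matrix genes have no mm9 position here and are named only as neighbours, in the order of the GRCm38.p6 RefSeq annotation. The recovery and window steps were tested on simulated data. Python 3.11.15, numpy 2.4.6, pandas 2.3.3 and scipy 1.17.1 (exact binomial intervals) were used. Alternatives were length weighting, medians, fragments of 200 to 1000 bp, fragments off the most frequent value, summed reads, other window bounds and other domain definitions.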

Additional observations from a re-analysis of the deposited data

Results flagged for a closer look

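With each body cut into 3 equal parts, the difference between the 3′ and the 5′ part had opposite signs in the profiles in 2 of the 5 genes. In Vim the 3′ part minus the 5′ part was −0.76 in the Dam-Lamin A profile and 3.36 in the Dam-Lap2b profile. In Col1a1 it was 0.56 and −0.20. Only the Dam-Lap2b difference of Vim exceeded the SD over fragments of both parts. How often other windows over the genome have opposite signs was not computed, so the count of genes is not read as a pattern. The difference between the fusions was not tested, since each had 1 sample.

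The domain lists differed in opposite directions in the profiles. The mean of bins unique to the Dam-Lamin A list minus that of bins unique to the Dam-Lap2b list was −0.42 in the Dam-Lamin A profile and 0.42 in the Dam-Lap2b profile, a difference that was not tested for the same reason. No member lay in a domain of either list.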

How the results depend on the processing

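The counts of 5 of 5 bodies below 0 in each profile and of 0 of 5 in a domain of each list were the same under all 22 alternatives run on them. Several of these could not have changed the count of 0. Requiring overlap of 50% of the body is stricter than 1 bp. Merging domains across gaps under 25 kb cannot close gaps of 351 kb or more. Domains called with 1 rule were runs of 10 kb bins above 0 in the same profiles, and all body bins were below 0. The 70 alternative values of single bodies and the 80 of differences from the surroundings were all below 0. Of these, 59 and 68 moved by no more than the half-width of the 95% interval over fragments. With summed reads only 4 of the 10 differences from the surroundings did so. There the differences of Col1a2 became −2.44 in the Dam-Lamin A profile and −1.55 in the Dam-Lap2b profile. That of Fn1 in the Dam-Lap2b profile became −1.08. Summed reads without the fragment with most reference reads were chosen after seeing the data. No paired analysis was possible because each group had 1 sample, and no sample could be left out. Depth limits single fragments, since several of the lowest values rest on 0 fusion reads over 13 to 166 reference reads.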
